A study of Homo sapiens with 4 samples.

Results

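H2AK119ub peaks near 38 genes of extracellular WNT signalling were compared between wild-type and YTHDF1 knockdown H1 human embryonic stem cells. The genes were taken by the names of their families, with no measured value in the rule, and form 3 classes: 19 WNT ligands, 10 Frizzled (FZD) receptors and 9 secreted antagonists (DKK1 to DKK4, SFRP1, SFRP2, SFRP4, SFRP5 and WIF1). They are 38 of 19821 protein-coding genes placed on chromosomes 1 to 22 and X in RefSeq. Peaks counted as belonging to a gene when they lay within 10 kb of either annotated end. This gave 66 of 32791 wild-type peaks and 71 of 34390 knockdown peaks.

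The study used chromatin immunoprecipitation sequencing of histone H2A carrying a single ubiquitin on a lysine of its tail (H2AK119ub), the mark made by Polycomb repressive complex 1. The wild-type group was untreated H1, an established embryonic stem cell line, and the other group was H1 that had received a YTHDF1 short hairpin RNA; YTHDF1 encodes a reader of the RNA modification m6A. The labels give mTeSR1 medium for all cells but neither the number of hairpins or clones nor the time after knockdown. Each group had 1 H2AK119ub library and 1 input library; the inputs were not analysed here. With 1 library a group there was no replicate spread to judge a difference by, and no test was run. The files hold peaks and no read counts, so the depth is unknown, and a peak found in one list alone may have narrowly missed being called in the other. The whole wild-type list covered 195 Mb and the knockdown list 168 Mb, and that lower total stands behind every comparison below. A peak gives no RNA level, so neither the identity of the cells nor the loss of YTHDF1 was checked.

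WNT ligands are secreted, lipid-modified glycoproteins that bind the cysteine-rich domain of Frizzled receptors, together with the co-receptors LRP5 and LRP6 in the branch that stabilises β-catenin. SFRP proteins and WIF1 bind WNT ligands outside the cell, and DKK1, DKK2 and DKK4 act on LRP5 and LRP6. In pluripotent cells WNT signalling takes part in the exit towards mesoderm and endoderm, and many developmental genes with CpG-rich promoters carry Polycomb marks there while they are silent.

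The promoter table from RefSeq (GRCh38.p14, the patched release of hg38 with the same coordinates) gave a start and a sequence for 26 of the 38 genes, namely 16 ligands, 5 receptors and 5 antagonists. The members named without one are WNT7B, WNT10B, WNT11, FZD2, FZD3, FZD6, FZD7, FZD10, DKK2, DKK3, DKK4 and SFRP1. The 250 bases before the start are shown for 5 genes that mark the range of what the peaks did. WNT1 had its start deep inside a wide domain in both lists. FZD5 is a receptor gene whose start peak was of nearly the same width in both. WIF1 had a narrower start peak in the knockdown. WNT5B had its start in a peak in the knockdown alone, and WNT8B had its start in no peak. Capitals mark CpG dinucleotides, and each sequence runs 5′ to 3′ towards the start.
WNT1 (chr12:48978072-48978321, plus strand): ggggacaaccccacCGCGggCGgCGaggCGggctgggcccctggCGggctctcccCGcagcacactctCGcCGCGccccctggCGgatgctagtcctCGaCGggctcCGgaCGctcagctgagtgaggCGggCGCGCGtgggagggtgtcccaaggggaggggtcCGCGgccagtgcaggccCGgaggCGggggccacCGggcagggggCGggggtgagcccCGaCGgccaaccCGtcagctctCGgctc
FZD5 (chr2:207769907-207770156, minus strand): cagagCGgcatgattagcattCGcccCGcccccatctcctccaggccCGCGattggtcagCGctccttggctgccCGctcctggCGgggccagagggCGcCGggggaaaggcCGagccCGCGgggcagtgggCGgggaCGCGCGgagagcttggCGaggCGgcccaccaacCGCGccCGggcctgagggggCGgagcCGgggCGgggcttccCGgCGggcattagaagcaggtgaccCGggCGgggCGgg
WIF1 (chr12:65121306-65121555, minus strand): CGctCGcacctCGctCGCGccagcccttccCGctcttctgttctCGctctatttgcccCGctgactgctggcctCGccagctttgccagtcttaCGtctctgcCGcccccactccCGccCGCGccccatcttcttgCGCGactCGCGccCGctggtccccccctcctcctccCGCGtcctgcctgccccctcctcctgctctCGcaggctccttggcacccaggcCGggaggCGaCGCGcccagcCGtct
WNT5B (chr12:1616806-1617055, plus strand): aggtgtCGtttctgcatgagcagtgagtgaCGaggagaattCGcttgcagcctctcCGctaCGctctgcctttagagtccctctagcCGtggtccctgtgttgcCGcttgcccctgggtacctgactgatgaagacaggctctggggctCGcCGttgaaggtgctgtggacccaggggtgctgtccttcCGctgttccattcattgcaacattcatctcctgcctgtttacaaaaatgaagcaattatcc
WNT8B (chr10:100462759-100463008, plus strand): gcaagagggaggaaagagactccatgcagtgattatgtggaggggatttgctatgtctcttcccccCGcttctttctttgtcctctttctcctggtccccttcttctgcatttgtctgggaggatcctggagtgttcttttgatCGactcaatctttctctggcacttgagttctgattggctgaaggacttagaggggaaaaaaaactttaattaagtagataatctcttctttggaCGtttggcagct

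These stretches hold 29 CpG dinucleotides at WNT1, 30 at FZD5 and 27 at WIF1, against 10 at WNT5B and 3 at WNT8B. Over the 300-base promoter window, which runs 50 bases into the gene, the median was 29.5 CpG for the 26 members and 22 for 15812 protein-coding genes. It was 32 for ligands (range 4 to 53), 31 for receptors and 23 for antagonists. Genes whose start lay in a peak of both lists had a median of 28, and genes whose start lay in a peak of neither list had 5. WNT8A and WNT8B, with 4 CpG each, were the members with the fewest, and both had their start in no peak of either list. WNT5B was the next, with 10. WNT9A had the most, with 53, and 15.8 kb of the 20 kb around its start lay in wild-type peaks and 15.4 kb in knockdown peaks. The letters CTTTGAT and CTTTGAA, the core bound by TCF and LEF factors, were searched on both strands. DKK1 alone among the 26 members held one of them (CTTTGAA), and 5.49% of all protein-coding promoter windows held either.

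**Figure D1:**
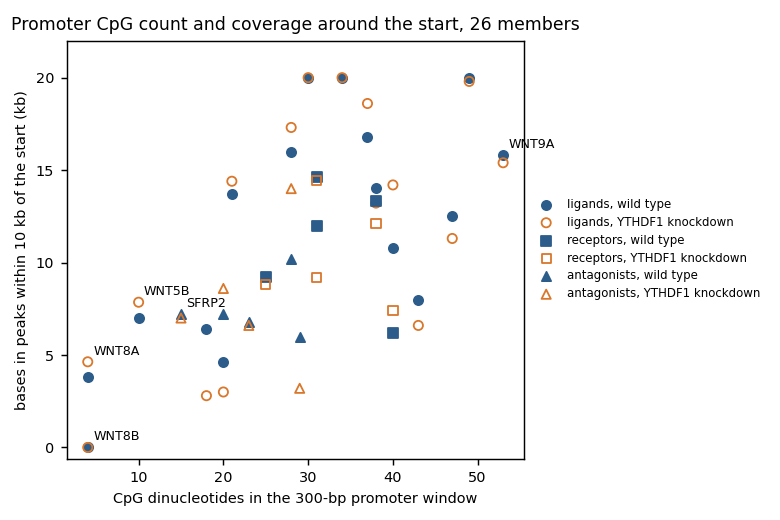
CpG dinucleotides in the 300-base promoter window (x axis) against bases in peaks within 10 kb of the start in kb (y axis) for 26 members; filled symbols are wild type, open symbols YTHDF1 knockdown, and the shape gives the class. WNT8B, with 4 CpG, has 0 kb in both lists, while WNT1, with 34, has 20.001 kb, the whole window, in both.

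Every member carried H2AK119ub nearby. All 38 had a peak within 10 kb of an end in the wild-type list and all 38 in the knockdown list, where 74.8% and 75.3% of all protein-coding genes did. Of the 26 members with a known start, 23 had the start inside a wild-type peak and 24 inside a knockdown peak, against 62% and 62.5% of 15812 genes. No member had its start in a peak in the wild type alone (background 6.46%), and WNT5B had it in the knockdown alone (background 6.99%).

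The extent of the mark, given as the bases in peaks inside the 10 kb windows and called covered length below, differed between the classes more than between the lists. The ligands had a mean covered length of 20.1 kb in wild-type and 19.4 kb in knockdown cells. The receptors had 12.4 and 11.1 kb, and the antagonists 7.87 and 8.14 kb. The mean of all protein-coding genes was 8.79 kb in wild-type and 7.70 kb in knockdown cells. Among the ligands, the windows of WNT6 and WNT10A overlap, as do those of WNT1 and WNT10B and those of WNT3 and WNT9B. Bases of their shared peaks thus count more than once in the ligand mean, and the values within each pair are not separate. Most receptor genes are short, so that their windows merge, with a median of 25.7 kb, while the ligand windows had a median of 40.0 kb and the antagonist windows 37.3 kb. As a share of the window, the means were 55.1% and 53.2% for ligands, 49.0% and 43.5% for receptors, and 24.6% and 25.8% for antagonists, in the order wild type and knockdown. Within 10 kb of the start, a window of equal size for each gene, the 16 ligands had means of 11.84 and 11.82 kb, the 5 receptors 11.1 and 10.4 kb, and the 5 antagonists 7.48 and 7.88 kb. The ligands and receptors thus lay close together on these scales and the antagonists below them. Other protein-coding genes overlapped the window of 10 of 19 ligands, 5 of 10 receptors and 4 of 9 antagonists, and their part in these lengths was not tested.

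**Figure D2:**
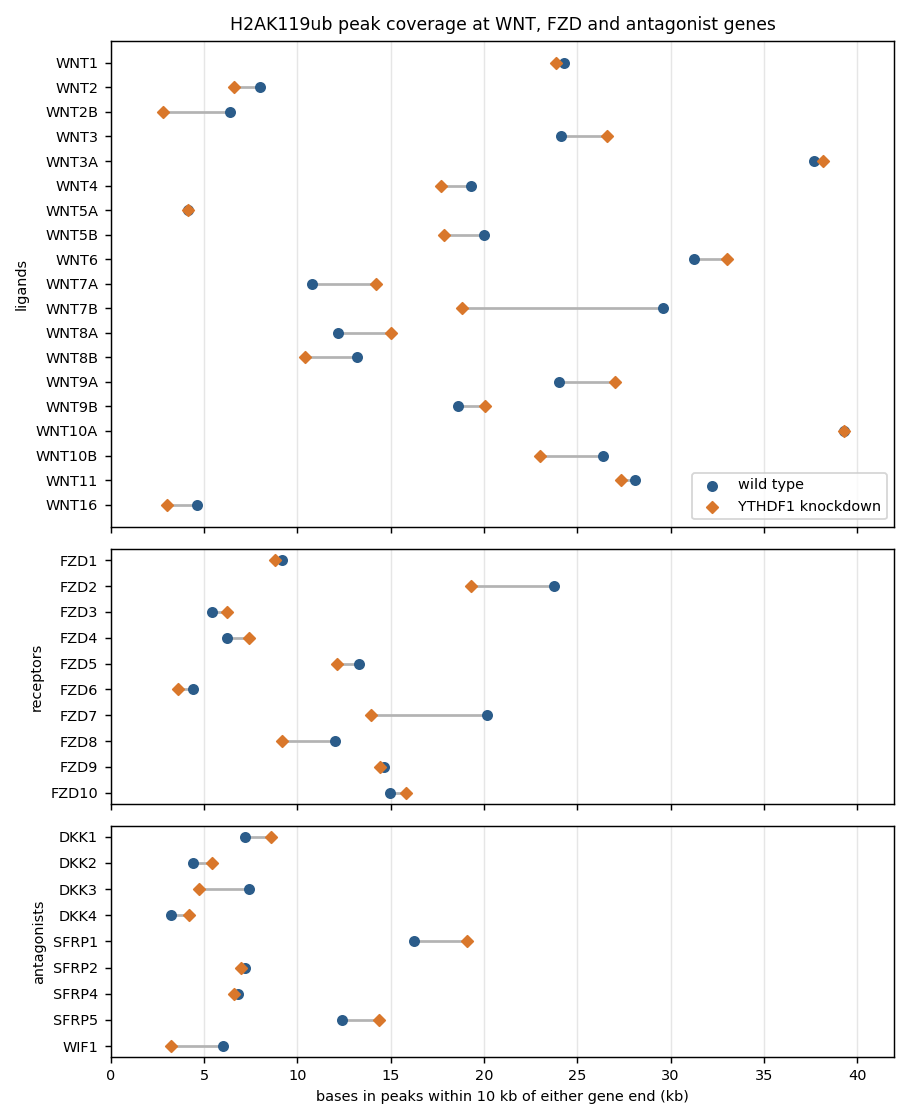
Bases in H2AK119ub peaks within 10 kb of either gene end in kb (x axis) for each of the 38 members, by class; circles are wild type, diamonds YTHDF1 knockdown, 1 library each. The ligands reach from 2.80 to 39.3 kb, and the longest grey line, at WNT7B, joins 29.6 and 18.8 kb.

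Between the lists, the members were not far from the genome as a whole in how many were shorter. Covered length was shorter in the knockdown for 21 of 38 members and longer for 15, with 2 equal. Among the 14033 protein-coding genes with a peak in both lists, 63.8% were shorter, 32.9% longer and 3.26% equal. The median ratio of knockdown to wild type was 0.978 for the members and 0.892 for those genes. Covered length was at least 1.5 times shorter for 5 members (WNT2B, WNT7B, WNT16, DKK3 and WIF1), against a background of 22.7%. It was at least 1.5 times longer for none, against 9.11%. Covered length cannot exceed the window, so genes whose window wild-type peaks mostly fill cannot reach that increase. Wild-type peaks filled a mean of 46.2% of the window for members and 36.9% for the background genes, and all of it at WNT1, WNT10B and FZD2. WNT16, at a ratio of 0.652, lay just inside the limit for shorter members and FZD7, at 0.692, just outside it. By class, 10 of 19 ligands were shorter and 7 longer, 7 of 10 receptors were shorter and 3 longer, and 4 of 9 antagonists were shorter and 5 longer.

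The shared part of the peaks was large at most members. Of all bases in peaks of either list inside a member's window, the share in both lists had a median of 74.9% over the 38 members, ranging from 43.8% at WNT2B to 100% at WNT5A and WNT10A. The median over genes with a peak in both lists was 59.8%. By class it was 78.8% for ligands, 77.0% for receptors and 63.4% for antagonists. The 100% at WNT5A and WNT10A holds inside the window alone. The whole peaks there measured 6.2 kb in wild-type and 5.6 kb in knockdown cells at WNT5A, and 50.4 and 52.2 kb at WNT10A. Of the 66 wild-type peaks at members, 58 touched a knockdown peak (87.9%, against 71.4% of the whole list), and of the 71 knockdown peaks 63 touched a wild-type peak (88.7%, against 74.1%). The member peaks were also wider than their lists, with medians of 6.4 against 4.4 kb for wild-type and 5.4 against 3.6 kb for knockdown peaks. The 8 wild-type peaks without a counterpart lay at WNT5B, WNT7B, WNT9B, WNT11, FZD10 and SFRP5 and measured at most 8.2 kb. The 8 knockdown peaks without one lay at WNT5B, WNT8A, WNT9B, WNT11, DKK3, SFRP1 and SFRP5 and measured at most 6.8 kb. The authors' score of a peak, whose unit no source used here gives and which runs from 2.002 to a ceiling of 1000, was at most 25.6 for the former and 37.4 for the latter. At the distance limit, the farthest wild-type peak counted lay 9.46 kb from FZD10 and the nearest one left out 10.1 kb from WNT3. In the knockdown these were 9.86 kb at DKK3 and 10.4 kb at WNT1, where the peak left out measured 10.2 kb.

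The widest ligand peak of each list, and the next widest of the wild type, lay over neighbouring pairs of WNT genes. WNT6 and WNT10A, which overlap on chromosome 2, lay in 1 peak in each list, of 50.4 kb in the wild type (chr2:218853001-218903400) and 52.2 kb in the knockdown (chr2:218851201-218903400). Both peaks end at the same base and carry the ceiling score. WNT10A, which acts in tooth and hair development, had 39.3 kb in both lists. WNT6 had 31.2 kb in wild-type and 33.0 kb in knockdown cells.

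The neighbours WNT10B and WNT1 on chromosome 12 also shared 1 wild-type peak, of 49.2 kb (chr12:48954001-49003200). In the knockdown the peak over both genes measured 27.8 kb (chr12:48964401-48992200), a second one of 5.8 kb (chr12:48955201-48961000) lay beyond WNT10B, and another of 10.2 kb (chr12:48993001-49003200) lay beyond WNT1. These 3 peaks covered 89.0% of the wild-type one. WNT1, a ligand of midbrain patterning, had 24.3 kb in wild-type and 23.9 kb in knockdown cells, and its window was filled by wild-type and nearly filled by knockdown peaks. WNT10B had 26.4 and 22.996 kb.

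WNT3 and WNT9B, neighbours on chromosome 17, shared a peak over the WNT3 start, of 16.0 kb in wild-type and 14.6 kb in knockdown cells. WNT3, which acts in primitive streak formation, had covered lengths of 24.1 kb in wild-type and 26.6 kb in knockdown cells. WNT9B had 18.6 and 20.1 kb, and the peak over its start measured 16.0 and 11.2 kb. WNT3A and WNT9A lie near each other on chromosome 1 without a common peak. WNT3A, widely used to activate β-catenin signalling, had 37.7 kb in wild-type and 38.2 kb in knockdown cells. Its start peak measured 21.6 and 27.4 kb. A knockdown peak of 31.4 kb over its end (chr1:228055801-228087200), the second widest ligand peak of that list, spanned wild-type peaks of 14.0 and 16.6 kb. WNT9A had 24.0 and 27.0 kb, and its start peak 11.4 and 11.2 kb. Of these 8 paired ligands, 5 had a longer covered length in the knockdown, WNT10A an equal one, and WNT1 and WNT10B a shorter one. Other measures turned the order for some of the 5. Over the whole gene with 10 kb on either side, WNT3 had 48 kb in wild-type and 45.4 kb in knockdown cells. WNT3A had 63.874 and 63.471 kb there, while WNT6, WNT9A and WNT9B stayed longer in the knockdown. Within 10 kb of the start, WNT3A had 20.001 and 19.798 kb, WNT9A 15.8 and 15.4 kb, and WNT9B 14.018 and 13.218 kb. WNT3 and WNT6 stayed longer in the knockdown there.

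The largest difference of any member was at WNT7B on chromosome 22, a ligand of lung and vascular development. It had 29.6 kb in wild-type and 18.8 kb in knockdown cells, a ratio of 0.635. The peak with the ceiling score there was wider in the knockdown, as it measured 19.8 kb in the wild type (chr22:45961201-45981000) and 22.4 kb in the knockdown (chr22:45960001-45982400). The wild-type list held 4 further peaks near the ends of WNT7B, of 6.2 to 8.2 kb and with scores of 10.5 to 20.5, and the knockdown list held 2, of 2.6 and 2.8 kb. Without WNT7B the ligand means were 19.6 kb in wild-type and 19.4 kb in knockdown cells, a difference of -0.621% in place of -3.40%.

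WNT2B and WNT16 were the other ligands at least 1.5 times shorter. Over the whole gene with 10 kb on either side, only WNT16 among the ligands kept that call, as WNT2B had 25.8 and 20.8 kb and WNT7B 45.4 and 31.4 kb. WNT2B had a peak of 6.4 kb over its start in the wild type (chr1:112461401-112467800), with a score of 53.1. In the knockdown it had 2 peaks of 1.4 kb, one of them over the start, with scores of 6.84 and 13.6. WNT16 had 4.6 kb in wild-type (chr7:121326401-121331000) and 3.0 kb in knockdown cells (chr7:121328401-121331400). The peak reached 2.60 kb upstream of its start in wild-type and 0.60 kb in knockdown cells. WNT10B, WNT8B, WNT5B, WNT4, WNT2, WNT11 and WNT1 had differences between -0.42 and -3.4 kb.

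WNT7A, which patterns the dorsal limb, had the largest increase among the ligands, with 10.8 kb in wild-type (chr3:13873201-13884000) and 14.2 kb in knockdown cells (chr3:13871401-13885600). Its start peak was the whole of it in both lists and was longer on both sides in the knockdown. Over the entire gene, however, WNT7A had 21.8 kb in wild-type and 16.2 kb in knockdown cells, so that the order turned. WNT9A, at 3.0 kb longer, and WNT8A, at 2.83 kb longer, followed.

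For several ligands, among them WNT5A, WNT5B and WNT8B, the gene ends and the start gave different pictures. WNT5A, a ligand of the β-catenin-independent branch, had 4.12 kb in both lists near its ends, as its RefSeq start lies inside the annotated gene. The peak over that start measured 13.2 kb in wild-type and 14.4 kb in knockdown cells. WNT5B, its closest relative, had 19.99 kb in wild-type and 17.8 kb in knockdown cells, spread over 4 peaks in each list. The wild-type list held no peak from 7.26 kb before to 5.75 kb after the start. The knockdown list held one of 3.6 kb there (chr12:1615801-1619400), with a score of 9.997, which lies at percentile 33.0 of its list. WNT8B had 13.2 kb in wild-type and 10.4 kb in knockdown cells, all of it in a peak that begins 15.6 and 16.8 kb after the start and extends past the end of the gene, where SEC31B lies.

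**Figure D3:**
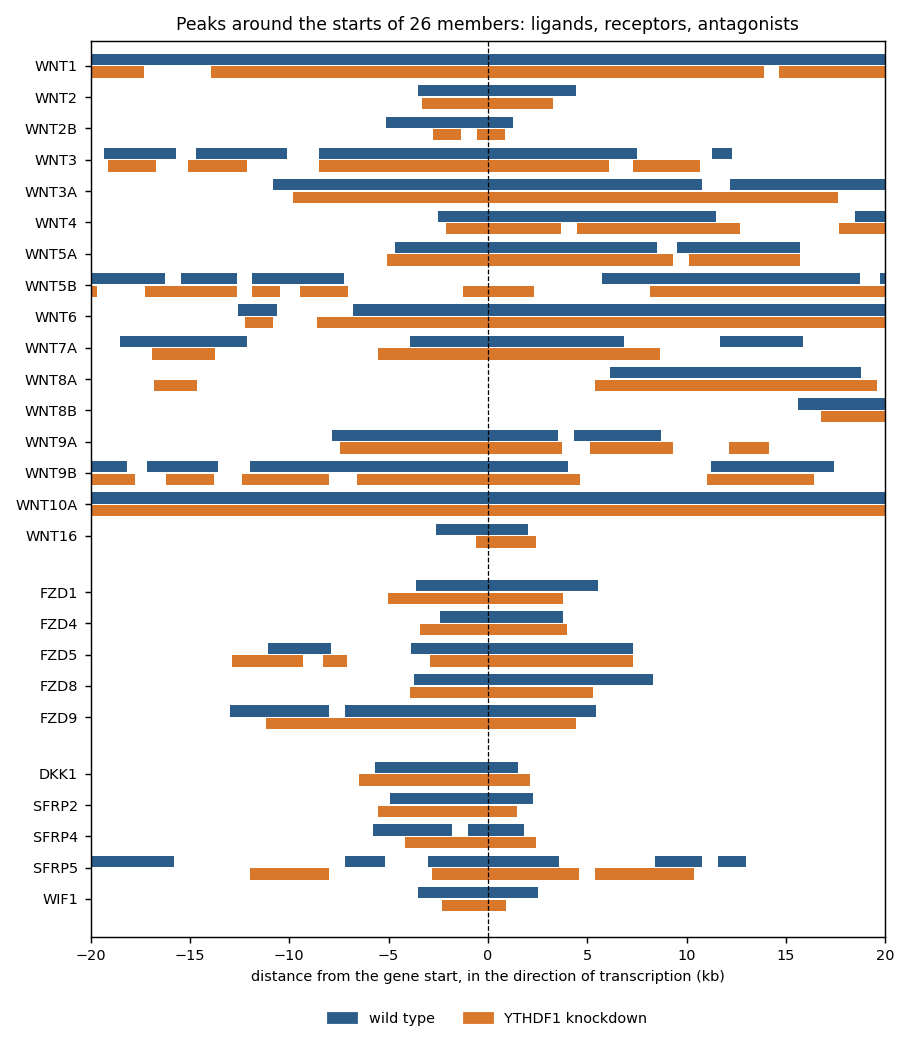
Peaks of the wild-type list (blue) and the YTHDF1 knockdown list (orange) within 20 kb of the start of 26 members, drawn in the direction of transcription (x axis, kb); each pair of rows is a gene. The starts of WNT8A and WNT8B lie in no peak, the WNT5B start lies in a knockdown peak of 3.6 kb alone, and peaks run past both edges at WNT10A.

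The Frizzled genes, which encode the membrane receptors of WNT ligands, are mostly short, with 8 of 10 measuring 2.34 to 9.72 kb. FZD2, FZD7, FZD8, FZD9 and FZD10 lay wholly inside peaks in both lists. FZD3 and FZD6 are longer, at 80.0 and 34.4 kb, and had 3.48% and 4.97% of the gene in wild-type peaks. The start of each of the 5 receptors with a known start lay in a peak in both lists, and so did the points 2 kb before and 2 kb after it. At 5 kb after the start 4 of 5 were inside a wild-type peak and 2 inside a knockdown peak, where 21.2% and 17.4% of all protein-coding genes were. The order was the other way at 5 kb before the start, with 1 of 5 in a wild-type and 2 in a knockdown peak (20.9% and 17.9% of all genes). FZD2 on chromosome 17 had the longest covered length, with 23.8 kb in the wild type, where the window was filled, and 19.3 kb in the knockdown. Its peaks measured 39.2 and 36.8 kb, both at the ceiling score. FZD7, a receptor abundant in human embryonic stem cells, had the largest difference of the class, with 20.1 kb in wild-type and 13.9 kb in knockdown cells. It had 2 peaks in each list. The one over the gene measured 15.8 kb in wild-type (chr2:202029001-202044800) and 9.2 kb in knockdown cells (chr2:202031401-202040600), and the one before it in genome order 6.0 and 8.8 kb. FZD2, shorter by 4.46 kb in the knockdown, had the next largest. FZD8 came after it, with 12.0 and 9.2 kb. Its peak had the ceiling score in the wild-type list and a score of 276 in the knockdown list.

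The other 7 receptors differed by at most 1.2 kb. FZD5 had 13.3 kb in wild-type and 12.1 kb in knockdown cells, and its start peak reached 7.31 kb downstream in both. FZD9 had 14.6 and 14.4 kb, and the gap between its 2 wild-type peaks was closed in the knockdown, where 1 peak of 15.6 kb lay. FZD10 had 14.9 and 15.8 kb, and FZD4 6.2 and 7.4 kb. FZD1 had 9.2 and 8.8 kb. FZD3, which acts in planar cell polarity, had 5.4 and 6.2 kb, and FZD6, its closest relative, 4.4 and 3.6 kb. The receptors as a class differed by -10.6% of the wild-type mean, and all protein-coding genes by -12.4%. With the lowest-scored wild-type peaks dropped until both lists covered the same length, all genes came to -4.93%. None of the dropped peaks was a receptor peak, so the receptor value of -10.6% could not change. That setting therefore does not compare the receptors with all genes. Without FZD7 the receptor difference was -6.74%.

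The start peaks of the 5 antagonists with a known start were narrower than those of ligands and receptors. Their medians were 6.6 kb in wild-type and 7.0 kb in knockdown cells. These start peaks were not narrower than those of all protein-coding genes, at 6.0 and 5.2 kb. SFRP1, which held the widest antagonist peak of each list, of 22 kb in wild-type and 10.4 kb in knockdown cells, has no start here. All 5 antagonists with a known start had it inside a peak in both lists. At 5 kb after the start 0 of 5 lay in a peak in either list, while 9 of 16 ligands lay in a wild-type and 8 in a knockdown peak. SFRP1 and SFRP5, which bind WNT ligands through a Frizzled-like domain, had the longest covered lengths. SFRP1 had 16.3 kb in wild-type and 19.1 kb in knockdown cells. Its wild-type peak was unbroken over 22 kb with the ceiling score, while 4 knockdown peaks of 2 to 10.4 kb touched that stretch and covered 79.1% of it. Another knockdown peak, of 3.4 kb, lay beyond the other end of the gene. Its score of 5.02 lies at percentile 10.3 of its list. This peak alone is longer than the 2.8 kb by which SFRP1 was longer in the knockdown. SFRP5 had 12.4 and 14.4 kb, in 4 and 3 peaks. Its start peak measured 6.6 and 7.4 kb.

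WIF1 and DKK3 were the antagonists at least 1.5 times shorter in the knockdown. WIF1 had 1 peak over its start in each list, of 6.0 kb in wild-type (chr12:65118801-65124800) and 3.2 kb in knockdown cells (chr12:65120401-65123600). The score went the other way, from 23.6 in the wild type to 33.4 in the knockdown, but scores of the lists are not on a common scale. DKK3 had 7.4 kb in wild-type and 4.75 kb in knockdown cells, and over the entire gene 14.4 and 6.95 kb. DKK1, which is a target of WNT signalling as well as its inhibitor, had 7.2 and 8.6 kb, DKK2 4.4 and 5.4 kb, and DKK4 3.2 and 4.2 kb, so that these LRP-binding antagonists had slightly longer marks in the knockdown. SFRP2 had 7.2 and 7.0 kb. SFRP4 had 6.8 and 6.6 kb, and its 2 wild-type peaks of 2.8 and 4.0 kb met 1 knockdown peak of 6.6 kb. The class differed by 3.31% of the wild-type mean, which turned to -0.835% without SFRP1.

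Around the start, the classes differed in shape more than the lists did. Of the 16 ligands, 8 were inside a peak at 10 kb after the start in each list, and 7 and 6 at 20 kb, where 17.7% and 15.1%, and 17.1% and 14.5%, of all protein-coding genes were. At 10 kb, 6 of these 8 positions were within the gene in each list and 2 beyond its end, and 6 of the 8 ligands in wild-type and 7 in knockdown cells had the start in a peak too. None of the 5 receptors with a known start was inside a peak at 10 kb or 20 kb after it in either list. These 5 genes measure at most 9.72 kb, so both points lay beyond the gene for each of them. FZD2, whose peaks were far wider than those of these 5, has no start here. Where the start lay in a peak of both lists, that peak had a median width of 14.0 kb in wild-type and 14.2 kb in knockdown cells for 13 ligands, 11.2 and 9.2 kb for 5 receptors, and 6.6 and 7.0 kb for 5 antagonists. It was 6.0 and 5.2 kb for 8781 protein-coding genes. The knockdown peak was the narrower one for 13 of these 23 members and for 62.7% of the 8781 genes. Of the 26 members, WNT6 and WNT10A share 1 start peak, so their values are not separate. SFRP1, which held the widest antagonist peak of each list, is not among the 26.

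**Figure D4:**
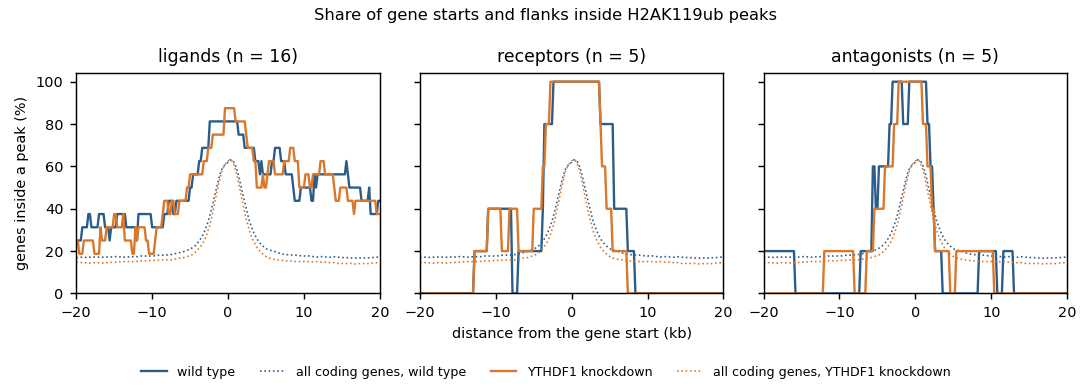
Share of genes inside an H2AK119ub peak in percent (y axis) at each distance from the start in kb (x axis), by class; solid lines are the members, dotted lines all 15812 protein-coding genes with a start, blue wild type and orange YTHDF1 knockdown. Receptors and antagonists reach 100% at the start. At 10 kb after it 0% of receptors and 20% of antagonists are inside a peak in each list, and 50% of ligands.

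The 60 other genes of the pathway were counted in the same way. Of the 60, 56 had a peak within 10 kb in wild-type and 58 in knockdown cells. Among the 56 with a peak in both lists, 35 were shorter in the knockdown (background 63.8%) and 20 longer (32.9%). Of these, 14 were at least 1.5 times shorter (22.7%) and 2, LRP6 and RYK, at least 1.5 times longer (9.11%), so the counts of shorter genes lay near the background. Their mean covered length was 13.1 kb in wild-type and 11.4 kb in knockdown cells, a difference of -12.7%. PORCN, which lipidates WNT proteins, and the antagonist gene SOSTDC1 had no peak in either list. PRICKLE2 and CER1, a secreted inhibitor that binds NODAL as well as WNT proteins, had 4.6 and 2.6 kb in the knockdown and none in the wild type.

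The nuclear factors had means of 17.1 kb in wild-type and 12.8 kb in knockdown cells, a difference of -25.0%, and 11 of 13 were shorter, against a background of 63.8%. TLE2, a Groucho co-repressor on chromosome 19, had 37.8 and 20.8 kb, the largest decrease in the list. CTNNBIP1, which blocks the binding of β-catenin to TCF factors, had 18.7 and 8.4 kb. The TCF and LEF genes themselves had 22.8 and 18.4 kb at TCF7, 14.6 and 9.41 kb at TCF7L1, 18.9 and 15 kb at LEF1, and 7.8 and 8.08 kb at TCF7L2. GSK3A, a kinase of the β-catenin destruction complex on chromosome 19, had 29.8 and 16.6 kb. The cytoplasmic core otherwise held the largest increases. AXIN1, the scaffold of that complex, had 21.8 kb in wild-type and 30.8 kb in knockdown cells, and DVL2, which relays the Frizzled signal, 21.976 and 27.0 kb. RYK, a WNT co-receptor, had 5.2 and 9.8 kb. SP5, a target of β-catenin, had 15.5 and 18.9 kb. No group was tested against another.

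**Figure D5:**
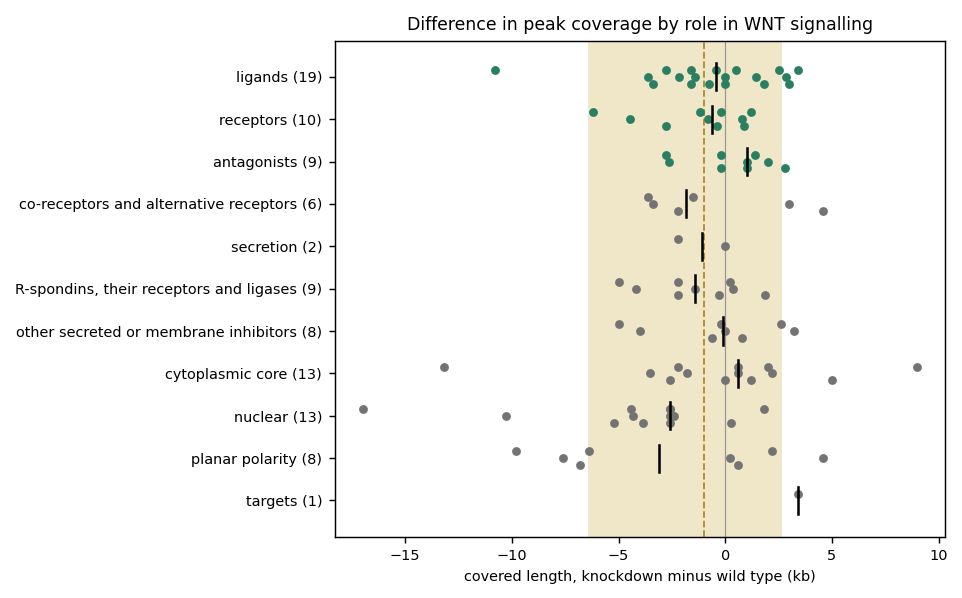
Covered length in the knockdown minus the wild type in kb (x axis) for each gene, by role (y axis, number of genes in brackets); green points are the 38 members, grey points the other pathway genes, and black bars are medians. The shaded band spans the 10th to 90th percentile of protein-coding genes with a peak in both lists (-6.4 to 2.6 kb) and the dashed line their median (-1 kb). The lowest medians are those of the planar polarity genes (-3.1 kb) and the nuclear factors (-2.6 kb), and the antagonist median, at 1.0 kb, lies above the dashed line.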

How the data were processed

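The tools in the submitters' processing notes are SICER 1.1, MACS2 2.1.0, Picard, SAMtools 1.3.1, Bowtie2 2.2.5 and Trimmomatic 0.35, with the build hg38 and no role or order. The peak caller, and any use of the input, are thus not known from the sources used here. Each list gives a chromosome, start, end and the authors' deposited score per peak, on a 200 bp grid. The score only ranked or filtered peaks within a list. Groups came from the sample titles. Peaks on chromosomes 1 to 22 and X were kept. Gene ends came from RefSeq, without 153 protein-coding genes that are placed on scaffolds. Starts and strand came from the RefSeq promoter table. Windows of 10 kb around both ends were merged, and bases in peaks were summed with Python 3.11.15, pandas 2.3.3 and numpy 2.4.6; the sums were tested on simulated data. An overlap of 1 bp was enough for peaks to touch. All 38 members were described. Those given in full were the 3 longest of each class, its 3 largest decreases and increases of at least 1 kb, and members that share a peak; of other pathway genes, the 3 largest decreases and increases were named, and further ones were chosen after their values were seen. The rule for the members uses family names alone, but the family and the other lists were picked with earlier results of these data known. No test was run, as each group had 1 H2AK119ub library.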

Additional observations from a re-analysis of the deposited data

How the results depend on the processing

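These values are limited by 1 library a group and the unknown depth. No paired analysis was possible because each group had 1 H2AK119ub library. All 38 members had a peak nearby in both lists; with the 5′ end alone 25 of the 26 with a start did, in each list, WNT8B being the exception. The other settings gave 36 to 38 in each list. The 5 members at least 1.5 times shorter became 2 with windows of 2 kb, 3 over the whole gene (WNT16, DKK3 and WIF1) and 3 at the 5′ end alone. None was at least 1.5 times longer, but 2 were with windows of 2 kb (WNT5B and SFRP5), 1 with 5 kb (WNT5B) and 2 in the upper 50% of peaks by score (SFRP4 and SFRP5). WIF1 and WNT16 were at least 1.5 times shorter under each setting except windows of 2 kb. The same held for DKK3, which has no known start for the 5′ end setting. With windows of 2 kb, WNT16 had 0.967 kb in wild-type cells and no peak in knockdown cells.

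The difference of each class mean between the lists, in percent of the wild type, moved by more than 1.5 times in many settings. For ligands, -3.40% became -1.44%, -5.16% and -5.68% with windows of 2, 5 and 20 kb, -0.176% at the 5′ end alone, -6.81% in the upper 50% by score, -0.105% with the wild-type list trimmed of 7377 low-scored peaks to equal covered length, and -0.621% without chromosomes 19, 21, 22 and X, which leaves out WNT7B. For receptors, -10.6% became -4.44% with 2 kb, -6.15% at the 5′ end alone and, in a setting chosen after seeing the data, -6.74% without FZD7. For antagonists, 3.31% turned to -5.06% with 20 kb, to -3.15% over the whole gene and, also chosen after seeing the data, to -0.835% without SFRP1. It became 9.21% with 2 kb, 2.205% with 5 kb, 5.34% at the 5′ end alone, 0.326% in the upper 50% by score, 5.39% with peaks of at least 2 kb and 12.2% after trimming. Trimming drops wild-type peaks alone, and DKK4 then had 0 kb in wild-type and 4.2 kb in knockdown cells. The 12.2% thus includes that dropped peak. What else moved these values was not tested. All protein-coding genes ranged from -14.0% over the whole gene to -4.93% after trimming. With at least 50% of both peaks in common, 62.1% of wild-type and 56.3% of knockdown member peaks were shared, against 47.5% and 45.3% of the whole lists.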
